A study of Mus musculus with 2 samples.

Results

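Mitral valve RNA was examined for 7 genes used as markers of Schwann cells and nerves, namely Cdh19, S100b, Mbp, Ngfr, Gfra3, Tubb3 and Th. They were taken by gene symbol from a table of 33640 genes, and all 7 were listed. The valves came from mice aged 5 months, heterozygous for the Fbn1 C1039G missense allele (written Fbn1C1039G/+ in the labels) or wild type (WT) at that gene. The gene product, fibrillin-1, builds the microfibrils of connective tissue, and the allele models Marfan syndrome. For each genotype, 8 valves from male and female mice were pooled into 1 RNA sample and 1 library, and no further allele or agent is given for either pool. No value below therefore has a replicate error, no test was possible, and each difference is one between 2 pooled libraries.

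Schwann cells are the glia of peripheral nerves. Some wrap axons in myelin, while others hold bundles of thin axons without myelin, and both derive from the neural crest, as do melanocytes. The nerve fibres that reach heart valves come from neurons whose cell bodies lie in ganglia outside the valve, so that most neuronal mRNA stays outside such tissue while glial mRNA is made on site. Neurons and glia of peripheral nerves depend on secreted factors, among them the neurotrophins, the GDNF family and neuregulin-1.

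The Schwann lineage genes Sox10, Erbb3 and Cdh19 were present at levels almost equal in both pools, which were low for Sox10 and Erbb3. The beta-tubulin gene Tubb3 had more than 2-fold the TPM in the Fbn1 C1039G/+ pool, and Ngfr and S100b had less. TPM expresses abundance per transcript length and per library. In whole tissue, fewer cells of a type and less RNA per cell cannot be told apart. Differences are in log2(TPM + 1), Fbn1 C1039G/+ minus WT, and a gene was called at least 2-fold different where the difference reached 1 in size and its mean TPM over both libraries was at least 1. Of the 7 genes 5 reached that mean, and Gfra3 and Th did not. Tubb3 was the 1 gene called higher, against 4.81% of the 17004 genes that reached the mean, and none was called lower, against 1.72% of those genes. In either direction 6.53% of genes were called. The median difference over all 17004 genes was 0.14, and 64.9% of them had more TPM in the Fbn1 C1039G/+ pool, so a difference of 0 lies slightly below the middle of the table. The split of calls depended on the scaling, with 818 genes higher and 293 lower as deposited, 659 and 364 after centring on the median, and 540 and 462 after quantile normalization. It was 499 and 278 among the 15218 genes that reached the mean when mitochondrial, globin, ribosomal protein, Gm and Rik genes were left out.

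**Figure D1:**
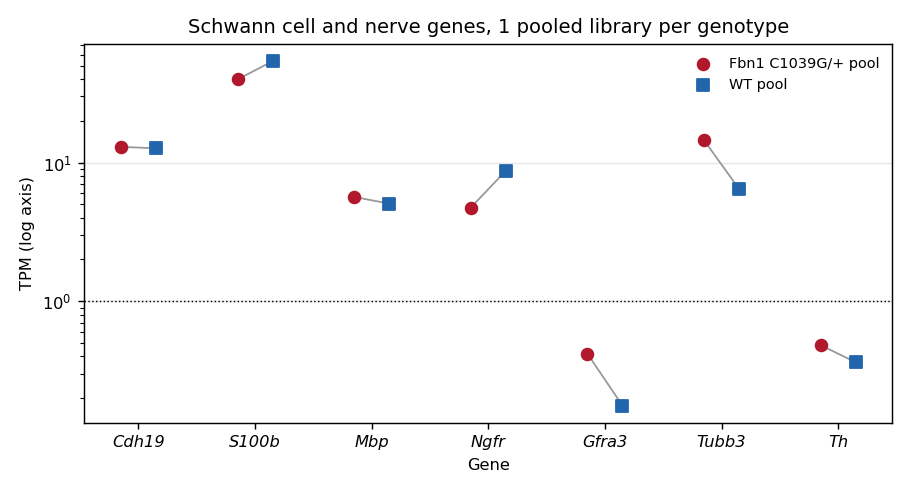
TPM of the 7 genes (log axis) in the Fbn1 C1039G/+ pool (red circles, left) and the WT pool (blue squares, right), with 1 library per genotype and so no error bars. The dotted line marks 1 TPM. Cdh19 and Mbp are nearly level, Tubb3 is higher and Ngfr and S100b lower in the Fbn1 C1039G/+ pool, and Gfra3 and Th lie below 0.5 TPM in both.

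The 2 libraries differed in more than nerve genes. TPM summed to 999945 in the Fbn1 C1039G/+ and 999964 in the WT pool, and the sequencing depth of each is unknown because TPM does not keep it. Valve interstitial markers were abundant in both, with Dcn, a matrix proteoglycan, at 9304 TPM in the Fbn1 C1039G/+ and 11409 TPM in the WT pool, so the labelled tissue carried the genes of its main cells. Of 10 neutrophil and monocyte genes, 9 were at least 2-fold higher, with summed levels of 349 TPM in the Fbn1 C1039G/+ and 49.9 TPM in the WT pool. Of 13 T cell genes 7 were at least 2-fold lower (97.1 TPM in the Fbn1 C1039G/+ and 202 TPM in the WT pool). Of 12 cardiac muscle genes 1 was at least 2-fold lower (2266 TPM and, in the WT pool, 3079 TPM), and of 7 lymphatic genes 3 were (213 TPM and, in the WT pool, 373 TPM). All 4 Y-linked genes had more TPM in the Fbn1 C1039G/+ pool (143 TPM summed) than in the WT pool (101 TPM), none of them by 2-fold.

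The sequence before the start of transcription is shown for Tubb3, S100b and Ngfr, the members with the largest differences among those that reached the mean. Of the 7 genes 4 had an entry in the RefSeq promoter table (GRCm38.p6). Each stretch ends before the first transcript start that RefSeq or GENCODE annotates for the gene, and is written in the direction of transcription. Capitals mark a match to the motif of SOX factors, the family of Sox10, spelled ACAAAG or ACAATG and searched on both strands, and the 2 spellings did not overlap. Tubb3 covers chr8:123411303-123411423 (plus strand), S100b chr10:76253586-76253835 (plus strand) and Ngfr chr11:95587736-95587948 (minus strand).
Tubb3: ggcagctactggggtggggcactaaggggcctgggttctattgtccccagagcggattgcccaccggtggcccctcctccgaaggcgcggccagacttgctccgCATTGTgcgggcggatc
S100b: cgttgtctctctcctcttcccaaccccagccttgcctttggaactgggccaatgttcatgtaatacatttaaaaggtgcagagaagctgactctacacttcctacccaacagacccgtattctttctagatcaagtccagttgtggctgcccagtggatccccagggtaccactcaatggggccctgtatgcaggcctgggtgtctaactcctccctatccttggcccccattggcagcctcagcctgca
Ngfr: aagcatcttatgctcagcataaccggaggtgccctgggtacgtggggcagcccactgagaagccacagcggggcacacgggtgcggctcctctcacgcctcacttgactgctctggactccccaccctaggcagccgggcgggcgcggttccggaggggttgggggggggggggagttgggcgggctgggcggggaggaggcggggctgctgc
The stretch of Tubb3 held ACAATG once, on the opposite strand, as do 5.54% of all promoters over the same 121 bases, and neither spelling was found in those of S100b and Ngfr. In windows of the same 250 bases as S100b, 16.5% of all promoters hold ACAAAG and 10.7% ACAATG, and in windows of the 213 bases of Ngfr, 14.4% hold ACAAAG and 9.55% ACAATG. A match is a run of letters and was not tested as a site.

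The glial label was set beside 4 Schwann cell markers. Cdh19 and S100b are themselves members, so only Sox10 and Erbb3 came from outside the set. Sox10, the transcription factor that specifies the lineage, was at 1.83 TPM in the Fbn1 C1039G/+ and 1.89 TPM in the WT pool. Erbb3, the receptor through which axonal neuregulin acts on Schwann cells, was at 1.18 TPM in the Fbn1 C1039G/+ and 1.20 TPM in the WT pool. With Cdh19, these genes had differences between −0.03 and 0.03, slightly below the median of all genes. The remaining marker, S100b, had less TPM in the Fbn1 C1039G/+ pool. None of 20 genes used by most cells was listed at 0 in either pool. The 4 glial markers were thus detected in both libraries, Sox10 and Erbb3 at under 2 TPM. Melanocytes, which share the neural crest origin, were not separated from Schwann cells here, and their part in these values was not tested.

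Cdh19, a type II cadherin found on Schwann cell precursors and mature Schwann cells, was at 12.97 TPM in the Fbn1 C1039G/+ pool and 12.7 TPM in the WT pool. Its difference of 0.03 was larger than that of 38.3% of all genes in the comparison. It became slightly negative after centring, after quantile normalization and without mitochondrial, globin, ribosomal protein, Gm and Rik genes. The gene (ENSMUSG00000047216.8) lies on chromosome 1 at 110888326 to 110977584 on the minus strand (GRCm38). Of its 12 type II cadherin paralogs 4 reached a mean of 1 TPM. Cdh11, of mesenchymal cells, was at 169 TPM in the Fbn1 C1039G/+ and 204 TPM in the WT pool, and Cdh5, of endothelium, at 61.6 TPM and, in the WT pool, 65.8 TPM. Cdh20 was at 2.63 TPM in the Fbn1 C1039G/+ and 1.70 TPM in the WT pool. None of these cadherins was called in either direction.

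S100b, a calcium-binding protein abundant in Schwann cells, was the most abundant of the 7 genes. It was at 39.7 TPM in the Fbn1 C1039G/+ and 53.8 TPM in the WT pool, a difference of −0.43. Only 7.90% of all genes had a lower difference, but the central 95% of genes with a mean from 10 to 50 TPM lay between −0.61 and 1.001, so S100b was inside that span. The gene (ENSMUSG00000033208.7) lies on chromosome 10 at 76253853 to 76261159 on the plus strand and overlaps Dip2a on the other strand. Dip2a was at 15.6 TPM in the Fbn1 C1039G/+ and 14.2 TPM in the WT pool, and whether reads were assigned by strand is not stated. S100b is also made by melanocytes, fat cells and cartilage cells, and the lists of those cell types had less TPM in the same library. Melanocyte genes, 12 of 13 of which reached the mean, summed to 137 TPM in the Fbn1 C1039G/+ and 194 TPM in the WT pool, with a median difference of −0.52 and 8 of the 12 below 0. The 5 defining melanocyte genes all had less TPM in the Fbn1 C1039G/+ pool, and Dct, an enzyme of melanin synthesis, was called lower, at 31.1 TPM in the Fbn1 C1039G/+ and 68.2 TPM in the WT pool. Kit, a receptor that mast cells also carry, was the 1 gene of that list called higher (14.3 TPM and, in the WT pool, 4.23 TPM). With Kit, the 4 melanocyte genes above 0 were Mitf, Oca2 and Slc24a5. Mitf was at 18.3 TPM in the Fbn1 C1039G/+ and 14.4 TPM in the WT pool, and Oca2 at 4.63 TPM and, in the WT pool, 2.95 TPM. Adipocyte genes summed to 107 TPM in the Fbn1 C1039G/+ and 144 TPM in the WT pool, with 5 of 10 reaching the mean, 3 of them below 0 and 2 above, and none called. Lpl, a lipase also made by muscle, made up most of the sum, at 81.4 TPM in the Fbn1 C1039G/+ and 107 TPM in the WT pool. The adipocyte hormone gene Adipoq was listed at 0 in the Fbn1 C1039G/+ pool and at 0.151 TPM in the WT pool. Cartilage-like genes summed to 625 TPM in the Fbn1 C1039G/+ and 1388 TPM in the WT pool. Of 10, 9 were listed and 5 reached the mean, all 5 of them below 0, with Chad called lower. The cartilage collagen gene Col2a1 was at 0.442 TPM in the Fbn1 C1039G/+ and 0.0981 TPM in the WT pool. The part of these cell types in the S100b difference was not tested.

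Mbp encodes myelin basic protein, which compacts the myelin sheath, and the same locus gives transcripts in immune cells. It was at 5.64 TPM in the Fbn1 C1039G/+ and 5.06 TPM in the WT pool, a difference of 0.13, beside 0.14 for the median of all genes. The difference was negative after quantile normalization, at −0.06. The gene (ENSMUSG00000041607.17, chromosome 18) has 16 annotated transcripts, of 354 to 4797 bases, and 1 value per gene cannot separate the myelin forms from the others. The pseudogene Rpl21-ps8 lies within Mbp on the other strand and was at 0.857 TPM in the Fbn1 C1039G/+ and 4.98 TPM in the WT pool. T cell genes, all 13 of which reached the mean, had a median difference of −1.21 in the same libraries, and their part in the Mbp value was not tested.

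Of the 18 genes in the list for myelin and myelinating Schwann cells, Mbp included, 11 reached the mean, 1 was called higher and none lower, with a median difference of 0.13 and a range from −0.32 to 1.07. Pmp22, a myelin membrane protein also made by fibroblasts, was the most abundant at 1062 TPM in the Fbn1 C1039G/+ and 985 TPM in the WT pool. Mag, an adhesion protein between myelin and axon, was at 36.2 TPM in the Fbn1 C1039G/+ and 31.03 TPM in the WT pool. Egr2 was called higher at 27.3 TPM in the Fbn1 C1039G/+ and 12.4 TPM in the WT pool. It was not called after centring (0.96), after quantile normalization (0.93) or with a pseudocount of 5 TPM (0.89). Egr2 is the transcription factor of the myelin programme and also an early response gene of macrophages and fibroblasts. Neutrophil and monocyte genes were higher in the same library, and their part in the Egr2 value was not tested. Gjc3, a connexin of myelinating glia, was at 5.69 TPM in the Fbn1 C1039G/+ and 2.93 TPM in the WT pool, a difference of 0.77. Ncmap, a myelin membrane protein, was at 1.96 TPM in the Fbn1 C1039G/+ and 0.901 TPM in the WT pool, a difference of 0.64. Dhh, a signal that Schwann cells send to the nerve sheath, was at 10.2 TPM in the Fbn1 C1039G/+ and 12.3 TPM in the WT pool. The genes Gjb1 and Pmp2, which belong to myelinating Schwann cells, were listed at 0 in both pools.

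Genes of the Schwann lineage and of non-myelinating and injury-induced Schwann cells differed in both directions. Of 22, with S100b, Ngfr, Gfra3 and Cdh19 among them, 13 reached the mean and none was called, with a median of 0.03 and a range from −0.76 to 0.46. Ncam1, an adhesion molecule of non-myelinating Schwann cells and of other cells, was at 37.1 TPM in the Fbn1 C1039G/+ and 60.9 TPM in the WT pool, a difference of −0.70. In the other direction, Scn7a, a sodium channel of non-myelinating Schwann cells, was at 47.2 TPM in the Fbn1 C1039G/+ and 34.1 TPM in the WT pool. Matn2, a matrix protein found in nerve, was at 75.5 TPM in the Fbn1 C1039G/+ and 57.2 TPM in the WT pool. Sox2 and Olig1 were listed at 0 in both pools.

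Ngfr encodes p75, a receptor shared by all neurotrophins that immature and injured Schwann cells carry. It was at 4.73 TPM in the Fbn1 C1039G/+ and 8.73 TPM in the WT pool, a difference of −0.76, and the WT pool had 1.84 times the level. This was inside the span of −0.87 to 1.46 that held the central 95% of genes with a mean from 5 to 10 TPM, and 2.93% of all genes had a lower difference. Ngfr (ENSMUSG00000000120.6) lies on chromosome 11 at 95568818 to 95587735 on the minus strand. Neural crest derivatives other than Schwann cells can express this receptor, and the melanocyte values given for S100b apply here too, with their part in the result not tested. Gfra3 (ENSMUSG00000024366.8, also on chromosome 18), the co-receptor for artemin, was at 0.417 TPM in the Fbn1 C1039G/+ and 0.177 TPM in the WT pool, both under the mean of 1 TPM. Artemin itself (Artn) was at 0.0941 TPM in the Fbn1 C1039G/+ and 0.319 TPM in the WT pool. Ret, the kinase that signals with Gfra3, was at 1.11 TPM in the Fbn1 C1039G/+ and 0.835 TPM in the WT pool. With so little signal on both sides, none of the artemin pathway genes gave a difference that could be read.

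The receptors as a group did not move one way. Of 11 neurotrophin, GDNF family and neuregulin receptors, Ngfr and Gfra3 included, 9 reached the mean and none was called, with a median of −0.09. Ntrk2, the BDNF receptor, was at 11.2 TPM in the Fbn1 C1039G/+ and 17.2 TPM in the WT pool, and Ntrk3, the receptor for neurotrophin-3, at 19.3 TPM and, in the WT pool, 14.4 TPM. Gfra1, the GDNF co-receptor, was at 18.6 TPM in the Fbn1 C1039G/+ and 16.6 TPM in the WT pool. Sortilin (Sort1), which binds the precursors of neurotrophins together with p75, was at 6.83 TPM in the Fbn1 C1039G/+ and 9.21 TPM in the WT pool.

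The ligands included the pathway genes that were called. Of 8 neurotrophin, GDNF family and neuregulin genes, 4 reached the mean, and 2 of these were called higher and 1 lower, with a median of 0.73. Over all genes that reached the mean, 4.81% were called higher and 1.72% lower. Nrg1, neuregulin-1, was at 33.9 TPM in the Fbn1 C1039G/+ and 11.7 TPM in the WT pool, a difference of 1.45, and lay above the central 95% of genes with a mean from 10 to 50 TPM. Bdnf, brain-derived neurotrophic factor, was at 7.16 TPM in the Fbn1 C1039G/+ and 2.83 TPM in the WT pool, a difference of 1.09. Ntf3, neurotrophin-3, went the other way, at 0.928 TPM in the Fbn1 C1039G/+ and 3.35 TPM in the WT pool, a difference of −1.17. Bdnf and Ntf3 were inside the wider span of −1.44 to 1.93 found for genes with a mean from 1 to 5 TPM. Of the genes at that level 10.4% were called higher and 4.29% lower. The mean of Bdnf, 4.99 TPM, was at the upper edge of that range. The Bdnf difference was also inside the span of −0.87 to 1.46 for genes from 5 to 10 TPM, of which 6.2% were called higher. Gdnf was at 2.56 TPM in the Fbn1 C1039G/+ and 1.74 TPM in the WT pool. With the 4 genes under the mean included, the median of the 8 ligands was 0.26. Nrg1 was called under each of the 7 alternatives. Bdnf was not called after centring (0.98), after quantile normalization (0.88) or with a pseudocount of 5 TPM (0.64), nor was Ntf3 with that pseudocount (−0.49). The neutrophil and monocyte genes, which were higher in the same library, are given with the library facts, and their part in the ligand values was not tested. Of the distinct 31-base words in the transcripts of Bdnf, 13.5% also occur in another gene, mainly the antisense gene Gm45346. For Nrg1 4.33% do, mainly in Gm26578. Neither Gm45346 nor Gm26578 was listed among the deposited values, so whether any reads were divided with them is not known.

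**Figure D2:**
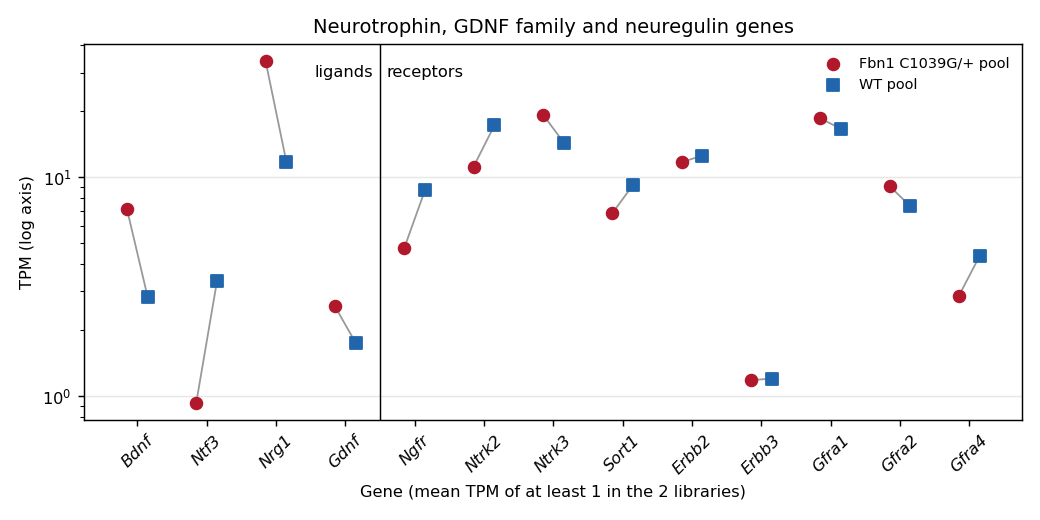
TPM (log axis) of the 4 ligand genes (left of the line) and 9 receptor genes (right) with a mean of at least 1 TPM, in the Fbn1 C1039G/+ pool (red circles) and the WT pool (blue squares), 1 library each. Bdnf and Nrg1 are higher and Ntf3 lower in the Fbn1 C1039G/+ pool, while no receptor differs by 2-fold on the log2(TPM + 1) scale.

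Tubb3 encodes the beta-tubulin isotype of neurons and their axons. It was at 14.4 TPM in the Fbn1 C1039G/+ and 6.44 TPM in the WT pool, a 2.24-fold ratio and a difference of 1.05. Of all genes in the comparison 95.6% had a lower difference, and among genes with a mean from 10 to 50 TPM 2.53% were called higher. The mean of Tubb3, 10.4 TPM, was at the lower edge of that range, and from 5 to 10 TPM 6.2% were called higher. The Tubb3 difference lay just above the central span of genes from 10 to 50 TPM (−0.61 to 1.001). It was inside the central span of genes from 5 to 10 TPM (−0.87 to 1.46). The value stands close to the threshold, since it was 0.94 after centring, 0.89 after quantile normalization and 0.77 with a pseudocount of 5 TPM, and thus not called under any of these. Tubb3 (ENSMUSG00000062380.4) lies on chromosome 8 at 123411424 to 123422015 on the plus strand and overlaps the same-strand gene Gm20388. That gene was at 18.8 TPM in the Fbn1 C1039G/+ and 18.4 TPM in the WT pool, and its annotated transcripts share no 31-base word with those of Tubb3. Of the 1867 distinct 31-base words of Tubb3, 60 (3.21%) also occur in transcripts of other genes, 43 of them in Tubb6.

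The other beta-tubulins did not differ in this way. All 6 of them that reached the mean had differences between −0.19 and 0.29. Tubb5, the isotype found in most cells, was at 169 TPM in the Fbn1 C1039G/+ and 175 TPM in the WT pool, Tubb4b at 147 TPM and, in the WT pool, 140 TPM, and Tubb6 at 45.7 TPM and, in the WT pool, 37.2 TPM.

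Other axonal and neuronal genes differed in both directions. Of 20, Tubb3 included, 12 reached the mean. Tubb3 was the 1 called, and 6 lay above 0 and 6 below. The median was −0.11, but −0.49 over the 7 genes with a mean of at least 5 TPM and 0.02 with no filter. Besides Tubb3, Dcx, a microtubule protein of immature neurons, was at 6.83 TPM in the Fbn1 C1039G/+ and 2.93 TPM in the WT pool, a 2.33-fold ratio and a difference of 0.99. It was called with a pseudocount of 0.1 TPM (1.19) and without mitochondrial, globin, ribosomal protein, Gm and Rik genes (1.01). Uchl1, a ubiquitin hydrolase abundant in neurons, was at 13.5 TPM in the Fbn1 C1039G/+ and 8.50 TPM in the WT pool. Elavl4, a neuronal RNA-binding protein, was at 2.19 TPM in the Fbn1 C1039G/+ and 0.801 TPM in the WT pool, a 2.74-fold ratio and a difference of 0.83, and was called with a pseudocount of 0.1 TPM (1.35). On the other side, the microtubule-associated genes Map2 and Mapt had less TPM in the Fbn1 C1039G/+ pool. Map2 was at 9.45 TPM there and at 14.9 TPM in the WT pool, and Mapt at 9.35 TPM and, in the WT pool, 13.5 TPM. Stmn2, which regulates microtubules in growing axons, was at 6.97 TPM in the Fbn1 C1039G/+ and 10.7 TPM in the WT pool, and Syp, a synaptic vesicle protein, at 8.27 TPM and, in the WT pool, 12.5 TPM. The neurofilament genes Nefl, Nefm and Nefh were all below 1 TPM in both pools. A shorter set of neuron markers was Tubb3, Nefl, Nefm, Prph, Uchl1, Stmn2 and Elavl4. Of these 7, 5 reached the mean, and 6 lay above 0 and 1, Stmn2, below. Over the 12 genes of the longer list that reached the mean, genes of axon structure showed no common direction with Tubb3. Which cells carried the Tubb3 transcripts was not tested.

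**Figure D3:**
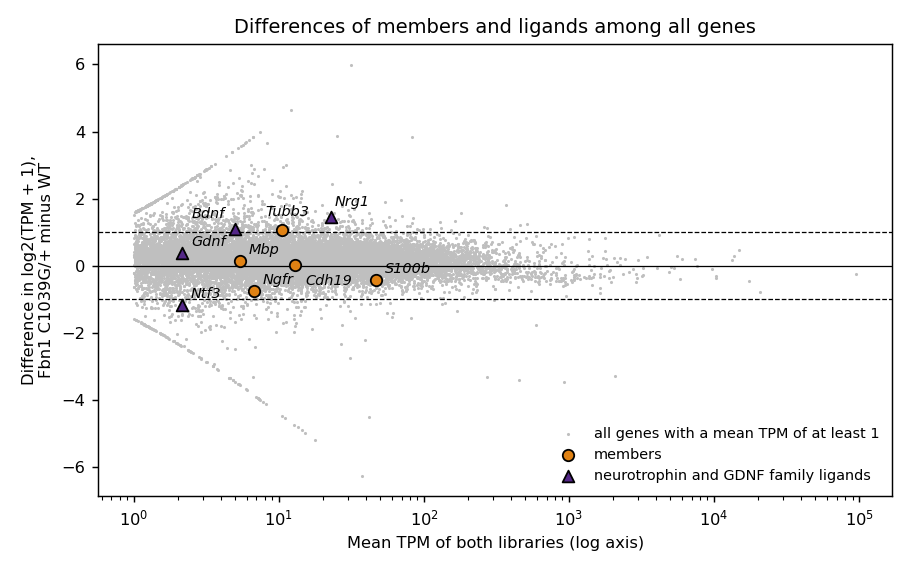
Difference in log2(TPM + 1), Fbn1 C1039G/+ minus WT, against mean TPM of both libraries (log axis), for the 17004 genes with a mean of at least 1 TPM (grey), 5 of the 7 Schwann cell and nerve genes (orange circles) and 4 ligand genes (purple triangles). Dashed lines mark a difference of 1 in either direction. Tubb3, Nrg1 and Bdnf lie above the upper line and Ntf3 below the lower one, and the streaks at the edges are genes listed at 0 in 1 library.

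Th, tyrosine hydroxylase, makes the first committed step of catecholamine synthesis and marks sympathetic fibres. It was at 0.481 TPM in the Fbn1 C1039G/+ and 0.363 TPM in the WT pool, below the mean of 1 TPM, and no direction was read from it. Th (ENSMUSG00000000214.11) lies on chromosome 7 at 142892752 to 142931128 on the minus strand. Its paralog Tph1, an enzyme of serotonin synthesis, was at 5.01 TPM in the Fbn1 C1039G/+ and 4.61 TPM in the WT pool, and was the 1 of 4 aromatic amino acid hydroxylases to reach the mean, with a difference of 0.10. Dbh, which makes noradrenaline, was at 0.118 TPM in the Fbn1 C1039G/+ and 0.133 TPM in the WT pool. Ddc, the decarboxylase that follows Th, was at 3.90 TPM in the Fbn1 C1039G/+ and 2.56 TPM in the WT pool. Slc6a2, the noradrenaline transporter, was at 2.56 TPM in the Fbn1 C1039G/+ and 5.85 TPM in the WT pool. Its difference was −0.95. This was inside the span of −1.44 to 1.93 that held the central 95% of genes with a mean from 1 to 5 TPM. The alternative with a mean of at least 5 TPM left Slc6a2 out. Its difference passed −1 under 4 of the other alternatives, with values from −1.16 to −1.06. These were centring, quantile normalization, a pseudocount of 0.1 TPM and leaving out mitochondrial, globin, ribosomal protein, Gm and Rik genes. The enzymes specific to noradrenaline neurons were thus near 0 in both libraries, while the transporter was measurable and had less TPM in the Fbn1 C1039G/+ pool.

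Of 17 noradrenergic genes, Th included, 9 reached the mean and none was called as deposited, with a median of 0.04. The most abundant have other sources as well. The neuropeptide gene Npy was at 129 TPM in the Fbn1 C1039G/+ and 138 TPM in the WT pool. Maob, a monoamine oxidase, was at 54.1 TPM in the Fbn1 C1039G/+ and 80.8 TPM in the WT pool. Cholinergic and peptidergic genes were low, with 6 of 12 reaching the mean, none called and a median of 0.21. Chat, which makes acetylcholine, was listed at 0 in both pools, and the nicotinic receptor subunit gene Chrnb4 was at 5.61 TPM in the Fbn1 C1039G/+ and 3.44 TPM in the WT pool. Ache, which breaks down acetylcholine, was at 4.50 TPM in the Fbn1 C1039G/+ and 4.07 TPM in the WT pool, and Tac1, the substance P precursor, at 1.69 TPM and, in the WT pool, 0.967 TPM.

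**Figure D4:**
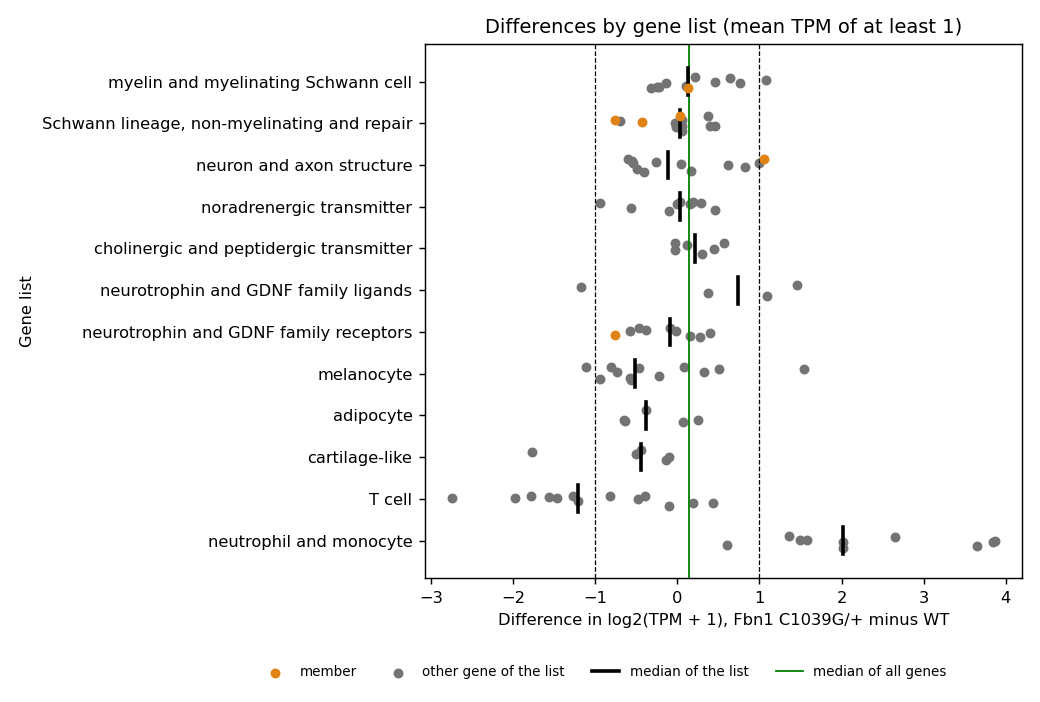
Differences in log2(TPM + 1), Fbn1 C1039G/+ minus WT, of the genes with a mean of at least 1 TPM in each of 12 gene lists, with 1 point per gene, members of the set of 7 in orange, black bars for list medians, a green line for the median of all genes (0.14) and dashed lines at −1 and 1. Vertical scatter within a row has no meaning. The medians of the nerve and glial lists lie between −0.11 and 0.21, the ligands at 0.73, the melanocyte, adipocyte, cartilage-like and T cell lists below 0, and neutrophil and monocyte genes at 2.02.

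In level, the order in the Fbn1 C1039G/+ pool was S100b, Tubb3, Cdh19, Mbp, Ngfr, Th and Gfra3, and in the WT pool it was S100b, Cdh19, Ngfr, Tubb3, Mbp, Th and Gfra3. S100b, Th and Gfra3 kept their places, and without replicates neighbours in either order cannot be separated. Likeness over 2 libraries is only nearness of 2 values, taken as the distance in log2(TPM + 1) among 102 other nerve, glial, transmitter and receptor genes. By this measure Gata3 (0.12) and Gch1 (0.25) were nearest to Mbp, Erbb2 (0.14) and Maoa (0.15) to Cdh19, and Ncam1 (0.20) and Plekhb1 (0.47) to S100b. Uchl1 (0.36) and Slc18a2 (0.56) were nearest to Tubb3, and Sort1 (0.45) and Gap43 (0.48) to Ngfr. For the low genes, Kcna1 (0.03) and Ugt8a (0.08) were nearest to Gfra3, and Ugt8a (0.14) and Elavl3 (0.15) to Th.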

How the data were processed

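RNA from 1 pool of 8 mitral valves per genotype was amplified with the Ovation RNAseq system and made into libraries with the Nextera XT kit, per the labels' protocols. Trimmomatic, HISAT2, kallisto and the mm10 genome are named, per the submitters' processing notes. Tool versions, the gene annotation and the step from transcripts to genes were not given in the sources used here. Values deposited by the authors were 1 TPM per gene and library, per the file header. TPM keeps no depth, so no interval or floor was computed, and amplified reads are not independent molecules. A few reads on a very short transcript can give it a high TPM.

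From these values, log2(TPM + 1) differences, Fbn1 C1039G/+ minus WT, were computed with Python 3.11.15, pandas 2.3.3 and numpy 2.4.6, and a gene was called at a size of 1 among genes with a mean of at least 1 TPM. The calling step was checked on simulated data with changes well past the threshold in genes of higher TPM. That check does not cover calls near the threshold or at low TPM. With 1 library per genotype there was no test. Alternatives were pseudocounts of 0.1 and 5, no filter or a mean of 5 TPM, centring on the median of genes with at least 10 TPM, quantile normalization, and leaving out mitochondrial, globin, ribosomal protein, Gm and Rik genes. Coordinates, overlaps and shared 31-base words come from GENCODE release M21 (GRCm38, the build called mm10), which need not be the authors' annotation. Promoters come from RefSeq.

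The members and the 20 other gene lists were chosen with earlier results of these data known. Genes named were the members, 9 defining genes, and from each list the 2 most abundant and the 2 with the largest difference. Others were chosen after their values were seen, such as Gdnf, Uchl1, Elavl4, Stmn2, Syp, Ncmap, Scn7a, Dhh and Sort1, as were the 20 genes used by most cells. Some genes that the rule takes in the lists of other cell types are given only within their list's counts. Some genes are not reported here, and they were left out of the lists and their counts.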

Additional observations from a re-analysis of the deposited data

How the results depend on the processing

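No paired analysis was possible because each genotype has 1 library, and for the same reason no library could be left out. Across the alternatives Tubb3 ran from 0.77 to 1.15, S100b from −0.56 to −0.39 and Ngfr from −0.96 to −0.50, with no change of sign. Tubb3 was 0.77 with a pseudocount of 5 TPM, 0.94 after centring and 0.89 after quantile normalization, so that under these 0 members were called higher. Mbp changed sign under 1 and Cdh19 under 3 of 7 alternatives. The ligand median ran from 0.26 with no filter to 1.45 with a mean of at least 5 TPM, where Nrg1 alone was left, the median of the axon and neuron list from −0.49 with a mean of at least 5 TPM to 0.02 with no filter, and the T cell median was −0.69 with a pseudocount of 5 TPM. Over all genes, 1264 were higher and 464 lower with a pseudocount of 0.1 TPM, 209 and 87 with one of 5 TPM, 360 and 103 with a mean of at least 5 TPM, and 540 and 462 after quantile normalization. Without mitochondrial, globin, ribosomal protein, Gm and Rik genes 499 were higher, of 15218 that reached the mean. The unknown depth limits the genes near or below 1 TPM most, Th and Gfra3 among them.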

Other observations

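Paralogs of S100b, a family of small calcium-binding proteins, had differences spread over a wide range. Of 16 S100 genes 14 reached a mean of 1 TPM, 3 were called higher and 1 lower, with a median of 0.32. The neutrophil proteins S100a8 and S100a9 were higher, at 16.2 and 48.0 TPM in the Fbn1 C1039G/+ pool, against 0.369 and 2.34 TPM in the WT pool. The abundant S100a6 was at 1142 TPM in the Fbn1 C1039G/+ and 1116 TPM in the WT pool, and S100a11 at 1849 TPM and, in the WT pool, 1579 TPM. S100b and S100a1, of muscle, had less TPM in the Fbn1 C1039G/+ pool, with S100a1 at 66.1 TPM there and 80.2 TPM in the WT pool.

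Valve interstitial genes had a median difference of 0.08 over 11 genes and none was called. Postn, a matrix protein of valve fibroblasts, was at 2263 TPM in the Fbn1 C1039G/+ and 1269 TPM in the WT pool.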
